A study of Homo sapiens with 9 samples.

Results

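The transforming growth factor beta (TGF-beta) and bone morphogenetic protein (BMP) pathway was described here by 39 genes of the 21229 in the deposited count table, chosen by gene symbol. They comprised 9 ligands, 3 extracellular regulators, 12 receptors and co-receptors, 8 SMADs, 3 intracellular regulators and 4 ID genes. All 39 symbols were in the table, and 38 passed the filter on low counts (at least 10 counts in enough libraries and 15 in total). INHBB, a subunit of activin B, was the exception, with 0, 5 and 2 counts over the libraries of the 3 groups. The RNA was from haematopoietic cells grown out of H1, a long-established line of human embryonic stem cells. There were 3 groups of 3 libraries: CD38+ cells of the control genotype, CD90+ cells of the control genotype, and CD90+ cells with GATA2 overexpression. CD38 and CD90 (the product of THY1) are surface antigens, and GATA2 is a zinc finger transcription factor of blood stem and progenitor cells. The sources used here do not give how GATA2 was introduced, whether a line was a clone, or whether replicate libraries represent different cultures. A p-value thus reflects only how far these libraries scatter, which may be technical.

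Ligands of this family are secreted dimers that bind a type II receptor kinase, which then phosphorylates a type I receptor kinase. The type I receptor phosphorylates receptor-regulated SMADs, SMAD2 and SMAD3 in the TGF-beta and activin branch and SMAD1, SMAD5 and SMAD9 in the BMP branch, which enter the nucleus with SMAD4. SMAD6 and SMAD7 inhibit the cascade, and the ID genes, which encode inhibitors of basic helix-loop-helix factors, are classic BMP targets. In blood formation BMP4 is known for specifying mesoderm, and TGF-beta for restraining the division of stem cells.

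Promoter sequence is shown for 3 members whose levels were higher in CD90+ than in CD38+ control cells and which have a single start in the table used, the inhibitory SMAD6 and the BMP targets ID1 and ID4. Each line gives the 250 bases before the transcription start from RefSeq (GRCh38.p14), 5′ to 3′ on the gene's plus strand. Capitals mark motifs found by a search of both strands. The search used the palindromic SMAD element (GTCTAGAC), the CAGA box (CAGACA), a GC-rich SMAD element (GGCGCC) and GATA sites (AGATAA or AGATAG, with TGATAA and with TGATAG). No 2 motifs overlapped in the sequences shown.
SMAD6, chr15:66701986-66702235: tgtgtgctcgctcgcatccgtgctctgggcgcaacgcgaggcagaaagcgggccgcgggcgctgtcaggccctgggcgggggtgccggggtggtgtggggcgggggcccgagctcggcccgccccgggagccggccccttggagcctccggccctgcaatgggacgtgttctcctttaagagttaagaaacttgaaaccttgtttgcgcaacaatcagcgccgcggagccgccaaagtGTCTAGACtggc
ID1, chr20:31605039-31605288: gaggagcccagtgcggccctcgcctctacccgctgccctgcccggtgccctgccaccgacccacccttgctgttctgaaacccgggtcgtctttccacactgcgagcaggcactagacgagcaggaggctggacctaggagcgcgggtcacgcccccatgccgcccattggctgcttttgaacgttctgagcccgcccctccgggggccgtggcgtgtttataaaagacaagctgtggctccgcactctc
ID4, chr6:19837120-19837369: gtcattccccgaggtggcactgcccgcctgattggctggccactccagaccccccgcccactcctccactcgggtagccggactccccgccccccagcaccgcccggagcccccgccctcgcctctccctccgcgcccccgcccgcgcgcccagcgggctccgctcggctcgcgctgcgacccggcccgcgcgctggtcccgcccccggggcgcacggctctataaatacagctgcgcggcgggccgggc
The SMAD6 window held GTCTAGAC with its first base 12 bases before the start, a match present in 0.182% of 35116 promoter windows of this length. SMAD6 was the only member of the 35 matched in the table with this element. None of the searched letters stood in the ID1 and ID4 windows. At least 1 window of 12 members held GGCGCC, of 9 members a CAGA box and of 9 members a GATA site, against 16.4%, 13.6% and 22.3% of all windows. Several members have more than 1 window, so the counts of members and the shares of windows are on different bases. A match is a string of letters and was not tested for binding.

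Total counts were 42695005 to 45561088 in CD38+ control, 42577569 to 47261093 in CD90+ control and 37500192 to 39582736 in GATA2 overexpression libraries. Levels are in CPM, a gene's count relative to its library's total after TMM scaling, as mean ± SD with n = 3. A gene was called by edgeR's quasi-likelihood test over 16232 genes with a Benjamini-Hochberg adjusted p under 0.05. GATA2 was at 569 ± 16.3 CPM in the CD38+ control libraries, 87.3 ± 1.93 CPM in the CD90+ control libraries and 376 ± 12.8 CPM in GATA2 overexpression cells. THY1 had 0 counts in CD38+ control libraries and 2.80 to 5.09 CPM in the 6 CD90+ libraries. The CD38 gene was at 122 ± 2.40, 4.37 ± 0.382 and 2.22 ± 0.514 CPM in the same order of groups.

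Marker lists of the cell types that the sorted fractions could hold differed between the groups. The summed level of 15 mesenchymal markers was 34.1 to 36.4 CPM in the CD38+ control libraries, 1151 to 1168 CPM in the CD90+ control libraries and 290 to 307 CPM with GATA2 overexpression, and POSTN was at 0 in CD38+ control cells. In CD90+ against CD38+ control cells 14 of the 15 rose and 0 fell. In GATA2 overexpression against CD90+ control cells 14 fell and 0 rose. Of all genes tested, 41.1% were called higher and 39.3% lower in the first comparison. In the second, 38.0% were called higher and 39.6% lower, and the counts of each list stand against these shares. The 15 macrophage markers summed to 2987 to 3004, 2304 to 2340 and 526 to 583 CPM in the same order, and none of them was at 0 in any group. Of the 14 tested, 7 rose and 7 fell in CD90+ against CD38+ control cells and 14 fell with GATA2 overexpression. Megakaryocyte and platelet markers summed to 539 to 545, 2591 to 2625 and 4032 to 4150 CPM, with 10 of 11 higher in CD90+ control cells and then 6 higher and 2 lower with GATA2 overexpression. Endothelial markers summed to 771 to 826, 1025 to 1055 and 1461 to 1483 CPM (EMCN at 0 in CD38+ control cells). Of 15, 12 were higher and 1 lower in CD90+ control cells. With GATA2 overexpression 7 were higher and 6 lower (46.7% and 40.0%, near the shares of all genes). The 12 blood markers, which check the labelled cell type, summed to 4868 to 5108, 2032 to 2054 and 1827 to 1854 CPM. Of them, 9 were lower and 3 higher in CD90+ control cells and then 6 higher and 4 lower with GATA2 overexpression. LCP1, the most abundant of the list in each group, was at 2617, 778 and 351 CPM and weighs heavily in these sums. Epithelial and endoderm markers (FGA at 0 in CD38+ control cells) summed to 361 to 377, 1084 to 1091 and 709 to 715 CPM, with 13 of 15 higher and 1 lower and then 13 lower and 1 higher. Pluripotency markers summed to 8.64 to 9.46, 67.9 to 69.5 and 60.7 to 66.6 CPM. POU5F1 was at 0 in CD38+ control and GATA2 overexpression cells, SOX2 was at 0 in CD38+ control cells, and of 5 tested 5 rose and then 4 fell and 1 rose. In these bulk libraries fewer cells of a type and less RNA per cell cannot be told apart.

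**Figure D1:**
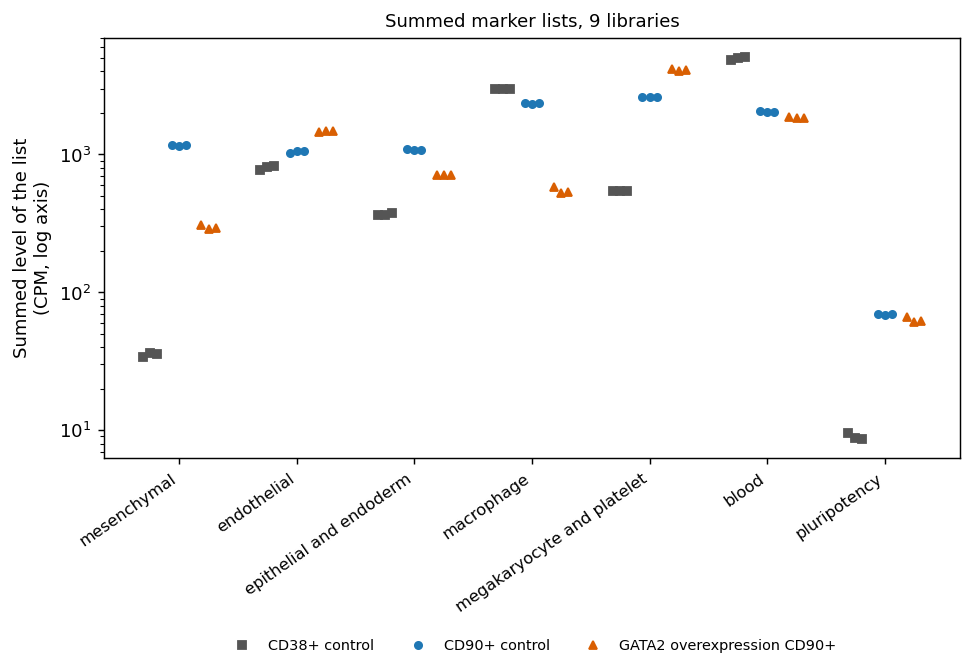
Summed level of each marker list in each library (CPM, log axis); points are the 9 libraries, with squares for CD38+ control, circles for CD90+ control and triangles for GATA2 overexpression CD90+. The mesenchymal sum was highest in CD90+ control libraries (1151 to 1168 CPM) and the macrophage sum lowest with GATA2 overexpression (526 to 583 CPM).

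Setting the CD90+ against the CD38+ fraction of control cells addressed how the pathway differs between them. BMP ligands were higher in CD90+ cells, while most receptors, among them TGFBR1, TGFBR2 and TGFBR3, were lower. Of 38 tested members 20 were called higher (52.6%, against 41.1% of all genes tested) and 15 lower (39.5%, against 39.3%), so the share called lower lay at the background. At least 2-fold were 14 higher and 5 lower, against 22.6% and 13.6% of all genes. In either direction 80.4% of all genes were called. Every CD90+ library lay above every CD38+ library for 20 members and below for 16, against 42.5% and 40.4% of all genes. The median log2 fold change was 0.23 over the members and 0.03 over all genes.

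The comparison of GATA2 overexpression with control within CD90+ cells asked how the pathway differs with added GATA2. Of the tested genes, 7 of 8 ligands, 10 of 12 receptors and co-receptors, 3 of 4 ID genes and 3 of 3 intracellular regulators fell. The 6 that rose were TGFB1, LTBP1, ACVR2B, SMAD1, SMAD2 and SMAD5. Here 6 members were called higher (15.8%, against 38.0% of all genes) and 27 lower (71.1%, against 39.6%). At least 2-fold, 1 was higher and 13 were lower, against 7.98% and 21.4% of all genes. In either direction 77.6% of all genes were called. The libraries lay wholly above for 7 members and wholly below for 28, against 39.3% and 41.1% of all genes. The median log2 fold change here was -0.61 over the members and -0.04 over all genes. Both comparisons use the same CD90+ control libraries, so their values are not independent. Added GATA2, the culture a library came from and the mix of cells carrying CD90 cannot be told apart.

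Scaling matters for small changes. With library size only the median of all genes moved by 0.41 on the log2 scale for CD90+ against CD38+ control and 71.2% of calls were higher, against 51.2% with TMM, and upper-quartile factors moved it by 0.26 (64.3% higher). For GATA2 overexpression against CD90+ control library size only moved it by -0.25, with 35.5% of calls higher against 49.0%, and upper-quartile factors by -0.11. For GATA2 overexpression against CD38+ control these scalings moved it by 0.16 and 0.15. Members that turned direction under these scalings are given with their values where they are described.

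**Figure D2:**
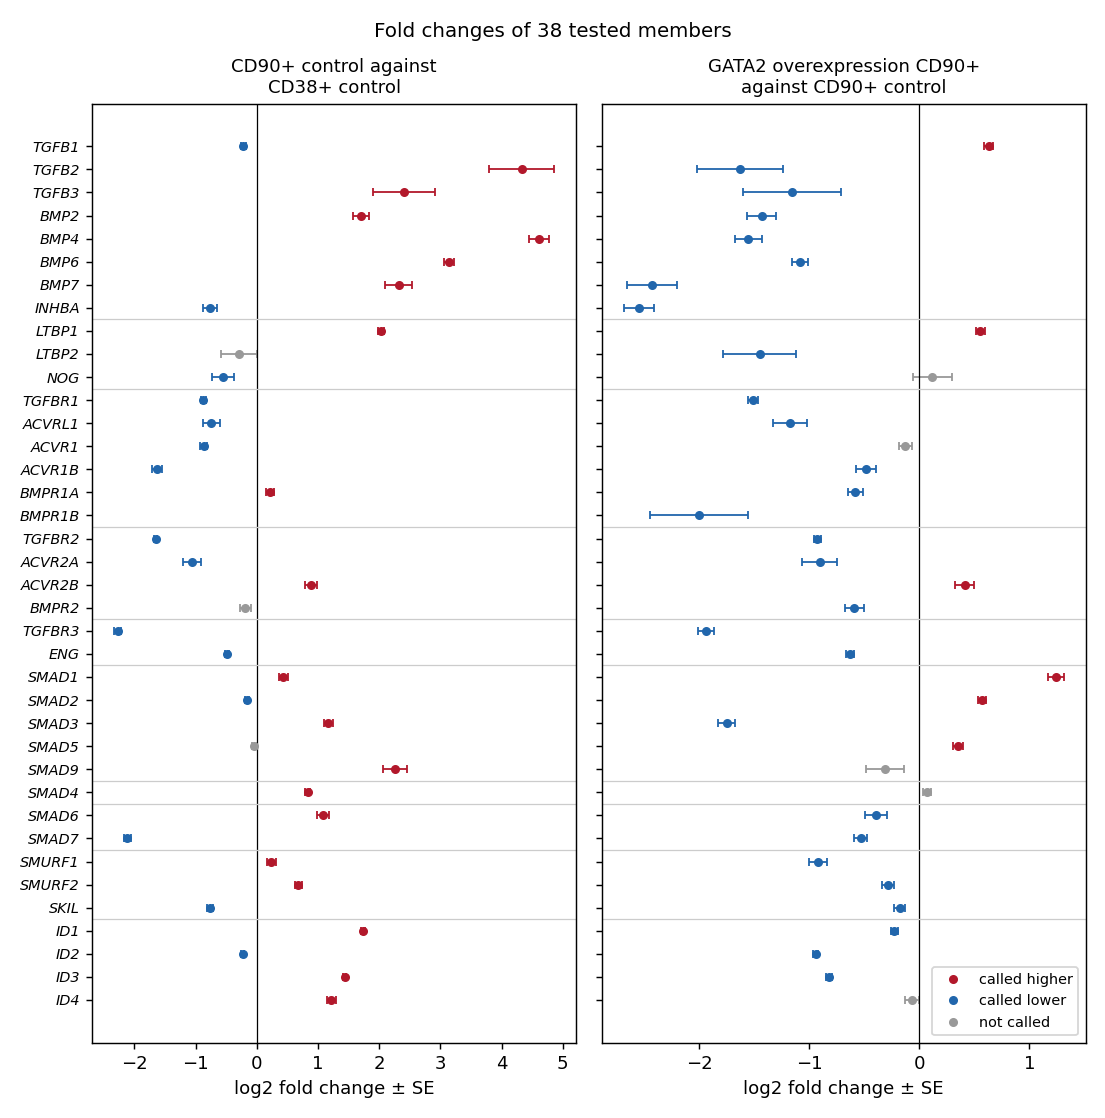
Log2 fold change of each tested member with its SE (horizontal axes) in CD90+ against CD38+ control cells (left) and in GATA2 overexpression against control CD90+ cells (right); colours give the call, lines separate roles, and BMPR1B is left out on the left because CD38+ control libraries had 0 counts. On the right 27 of 38 members were called lower and 6 higher; TGFB1, LTBP2, BMPR2, SMAD2, SMAD5 and ID2 on the left and NOG and SMAD4 on the right change side with library size only.

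The 4 BMP ligands were each higher in CD90+ than in CD38+ control cells and lower with GATA2 overexpression. Of 8 tested ligands 6 rose in CD90+ against CD38+ control cells (75.0%, against 41.1% of all genes), all by more than 2-fold, and 2 fell (39.3% of all genes fell). With GATA2 overexpression 7 of 8 fell (87.5%, against 39.6% of all genes) and 1 rose (12.5%, against 38.0%). BMP4 (ENSG00000125378.15, chromosome 14, 53949736 to 53958761, minus strand, GRCh38), a mesoderm inducer, was at 0.665, 0.642 and 0.951 CPM in the CD38+ control libraries. It was at 18.5, 19.3 and 17.9 CPM in the CD90+ control libraries and 5.66, 6.01 and 7.34 CPM with GATA2 overexpression. The groups did not overlap, with CD90+ control libraries highest and GATA2 overexpression libraries between. BMP4 was 24.5-fold higher in CD90+ than in CD38+ control cells (log2 fold change 4.61 ± 0.16 SE, adjusted p = 3.58e-14) and 2.93-fold lower with GATA2 overexpression (-1.55 ± 0.12, adjusted p = 4.44e-09).

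BMP6 (ENSG00000153162.8, chromosome 6, 7726797 to 7881422, plus strand), a BMP best known as an inducer of hepcidin, had 4.97, 4.81 and 4.61 CPM in the CD38+ control libraries. Its CD90+ control libraries were at 40.8, 42.7 and 43.9 CPM and those with GATA2 overexpression at 18.8, 18.8 and 22.7 CPM. The order was that of BMP4, again with no overlap. BMP6 rose 8.86-fold in CD90+ over CD38+ control cells (adjusted p = 9.99e-16) and fell 2.12-fold with GATA2 overexpression (adjusted p = 3.34e-10). BMP2, a ligand of the same branch, went from 3.92 ± 0.727 to 12.7 ± 0.381 CPM and then to 4.71 ± 0.303 CPM, changes of 3.24-fold and 2.70-fold (adjusted p = 3.35e-09 and 2.98e-08). BMP7, a ligand with roles in kidney and bone, went from 0.799 ± 0.242 to 3.99 ± 0.470 and then to 0.740 ± 0.128 CPM, with folds of 4.98 up and 5.37 down. For BMP2 and BMP7 the libraries with GATA2 overexpression overlapped those of CD38+ control cells.

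The other ligands did not share that pattern as a whole. TGFB1 (ENSG00000105329.9, chromosome 19, 41301587 to 41353911, minus strand), the most studied TGF-beta and one stored in platelets, was at 119, 114 and 129 CPM in the CD38+ control libraries and 102, 103 and 106 CPM in CD90+ control libraries. With GATA2 overexpression it was at 153, 171 and 158 CPM, above every control library. It rose 1.55-fold with GATA2 overexpression (adjusted p = 6.12e-10). In CD90+ against CD38+ control cells it was called 1.16-fold lower (adjusted p = 2.20e-04), a direction that turned with library size only (log2 fold change 0.19) and with upper-quartile factors (0.04). INHBA, the subunit of activin A, was at 20.3, 18.4 and 21.7 CPM in the CD38+ control libraries, 12.4, 10.8 and 12.5 CPM in the CD90+ control libraries and 1.83, 1.72 and 2.55 CPM with GATA2 overexpression. It fell in both comparisons, 1.69-fold and 5.84-fold (adjusted p = 1.03e-05 and 1.92e-11).

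TGFB2 and TGFB3, the other TGF-beta ligands, had few counts. TGFB2 had 11, 307 and 72 counts over the 3 libraries of CD38+ control, CD90+ control and GATA2 overexpression cells, and TGFB3 had 23, 170 and 55. TGFB2 was called 20.1-fold higher in CD90+ control than in CD38+ control cells (log2 fold change 4.33, and 5.14 without CD38+ control replicate 3). TGFB3 was called 5.31-fold higher (2.41, and 3.03 without CD38+ control replicate 2). With GATA2 overexpression TGFB2 was called 3.09-fold lower and TGFB3 2.22-fold lower (adjusted p = 0.00126 and 0.0266). The TGFB3 libraries overlapped, and its call was lost without CD90+ control replicate 1 or 2 (adjusted p = 0.0758 and 0.159) or GATA2 overexpression replicate 3 (0.0894). Of the TGFB2 exon length 26.6% is shared with TGFB2-OT1 on the same strand. The ligands that rose and then fell (BMP2, BMP4, BMP6, BMP7, TGFB2 and TGFB3) stood beside the mesenchymal sums of 34.1 to 36.4, 1151 to 1168 and 290 to 307 CPM. Epithelial and endoderm sums had the same order, at 361 to 377, 1084 to 1091 and 709 to 715 CPM. So did pluripotency sums, at 8.64 to 9.46, 67.9 to 69.5 and 60.7 to 66.6 CPM. The sums of the other lists had other orders. The part of other cells in these levels was not tested.

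Extracellular regulators did not share a direction in either comparison. LTBP1 (ENSG00000049323.15, chromosome 2, 32946972 to 33399509, plus strand), which tethers latent TGF-beta to the matrix, was at 16.0, 16.9 and 15.6 CPM in the CD38+ control libraries. It was at 65.7, 67.0 and 65.3 CPM in the CD90+ control libraries and 97.2, 92.8 and 101 CPM with GATA2 overexpression. It rose in both comparisons, 4.09-fold and 1.47-fold (adjusted p = 1.26e-16 and 1.11e-09). Megakaryocyte and platelet marker sums rose in the same order, 539 to 545, 2591 to 2625 and 4032 to 4150 CPM, and their part in the LTBP1 values was not tested. LTBP2, a matrix relative of LTBP1, was at 1.42 ± 0.360, 1.16 ± 0.246 and 0.423 ± 0.162 CPM and fell 2.73-fold with GATA2 overexpression (adjusted p = 8.12e-04). Between the control fractions it was not called (log2 fold change -0.29, adjusted p = 0.362), and it turned to 0.12 with library size only. NOG, which encodes the BMP antagonist noggin, was at 3.43 ± 0.539, 2.34 ± 0.327 and 2.54 ± 0.193 CPM. Its call as 1.47-fold lower in CD90+ than in CD38+ control cells (adjusted p = 0.00840) was lost without CD38+ control replicate 1 (0.0506), with library size only (0.462) and with upper-quartile factors (0.141). With GATA2 overexpression NOG was not called (log2 fold change 0.12, adjusted p = 0.544), and it turned to -0.13 with library size only.

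**Figure D3:**
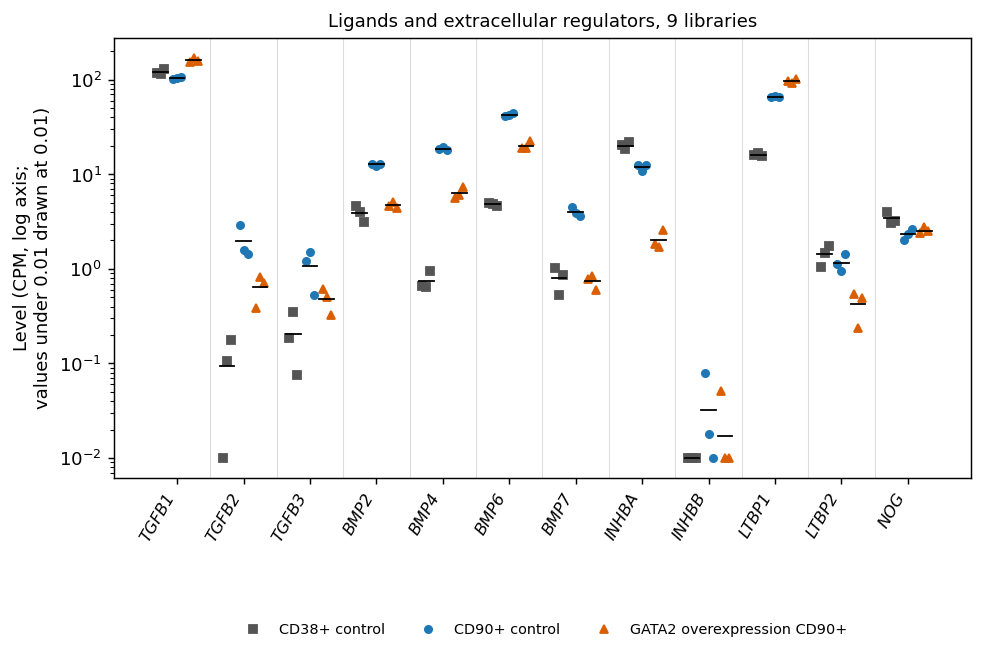
Level of each ligand and extracellular regulator in each of the 9 libraries (CPM, log axis; symbols as in the legend, black bars are means of 3). BMP4 and BMP6 were highest in CD90+ control libraries (18.6 and 42.5 CPM on average), whereas TGFB1 and LTBP1 were highest with GATA2 overexpression (161 and 97.0 CPM).

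Most receptors were lower in CD90+ than in CD38+ control cells, and most were lower with GATA2 overexpression than in control CD90+ cells. Of 12 receptors and co-receptors, all tested, 8 fell and 3 rose in CD90+ against CD38+ control cells, with a median log2 fold change of -0.81. BMPR1A, BMPR1B and ACVR2B rose, and BMPR2 was not called. Of all genes 39.3% fell and 41.1% rose in this comparison. With GATA2 overexpression 10 fell and 1 rose against control CD90+ cells, with a median of -0.76. ACVR2B rose, and ACVR1 was not called. Of all genes 39.6% fell and 38.0% rose with GATA2 overexpression. Medians over all genes were 0.03 and -0.04. TGFBR2 (ENSG00000163513.17, chromosome 3, 30606502 to 30694142, plus strand), the type II receptor of TGF-beta, was at 263, 263 and 265 CPM in the CD38+ control libraries. It was at 82.4, 85.1 and 84.5 CPM in the CD90+ control libraries and 44.0, 45.0 and 43.8 CPM with GATA2 overexpression. The 3 groups stood far apart compared with their spread. The falls were 3.14-fold (log2 fold change -1.65 ± 0.03 SE, adjusted p = 1.08e-18) and 1.90-fold (-0.92 ± 0.03, adjusted p = 1.03e-14).

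Its partner TGFBR1 (ENSG00000106799.12, chromosome 9, 99104038 to 99154192, plus strand), the type I receptor of TGF-beta, followed the same order. It was at 85.2, 84.2 and 84.1 CPM in the CD38+ control libraries, 45.1, 46.6 and 46.6 CPM in the CD90+ control libraries and 17.1, 15.7 and 15.9 CPM with GATA2 overexpression. It fell 1.83-fold and 2.84-fold (adjusted p = 2.50e-12 and 8.57e-15). TGFBR3 (ENSG00000069702.10, chromosome 1, 91680343 to 91906335, minus strand), the co-receptor betaglycan, which presents TGFB2 and binds inhibin, had the largest fall of the 12 in CD90+ against CD38+ control cells. Its libraries were at 105, 105 and 109 CPM in the CD38+ control libraries, 22.6, 23.8 and 19.6 CPM in the CD90+ control libraries and 5.81, 5.59 and 5.90 CPM with GATA2 overexpression. The falls were 4.82-fold and 3.82-fold (adjusted p = 6.52e-16 and 1.55e-13).

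ENG (endoglin), a co-receptor of endothelium and of early blood progenitors, was at 150, 157 and 163 CPM in the CD38+ control libraries, 113, 112 and 112 CPM in the CD90+ control libraries and 70.6, 75.7 and 72.0 CPM with GATA2 overexpression. It fell 1.40-fold and 1.54-fold (adjusted p = 6.79e-10 and 3.70e-11), the first of which was not called with library size only (log2 fold change -0.07, adjusted p = 0.0617). Over the same groups the endothelial marker sums rose, from 771 to 826 CPM through 1025 to 1055 CPM to 1461 to 1483 CPM. The second step was not shared by the list, as 7 of 15 were higher and 6 lower (median log2 fold change -0.08). EGFL7, the most abundant of the list in both CD90+ groups, was at 421 CPM in control and 581 CPM with GATA2 overexpression. ACVRL1, the endothelial type I receptor that works with endoglin, fell from 11.1 ± 2.34 to 6.61 ± 0.273 and 2.93 ± 0.0797 CPM, by 1.68-fold and 2.26-fold. Macrophage marker sums fell in the order of the TGF-beta receptors, from 2987 to 3004 CPM through 2304 to 2340 CPM to 526 to 583 CPM. The first step was not shared by the list, as 7 of the 14 tested rose and 7 fell. The most abundant gene was LYZ in CD38+ control cells (1624 CPM) and CSF1R in CD90+ control cells (1068 CPM). With GATA2 overexpression all 14 fell. Blood marker sums fell in that order too, from 4868 to 5108 CPM through 2032 to 2054 CPM to 1827 to 1854 CPM. In the first step 9 of 12 blood markers were lower and 3 higher. In the second step 4 were lower and 6 higher. The part of macrophages or other blood cells in the receptor values was not tested.

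Receptors of activin and BMP ligands were more mixed. ACVR1B, the type I activin receptor, fell from 28.5 ± 1.39 to 9.25 ± 0.774 and 6.62 ± 0.327 CPM, by 3.08-fold and 1.40-fold (adjusted p = 8.47e-12 and 1.01e-04). ACVR2A, a type II activin receptor, fell from 10.5 ± 0.605 to 5.04 ± 0.520 and 2.70 ± 0.599 CPM, by 2.09-fold and 1.87-fold. ACVR2B, the other type II activin receptor, went the other way. It was at 9.84, 8.98 and 7.31 CPM in the CD38+ control libraries, 15.7, 16.2 and 16.5 CPM in the CD90+ control libraries and 21.9, 21.9 and 20.5 CPM with GATA2 overexpression. It rose 1.85-fold and 1.33-fold (adjusted p = 1.56e-07 and 4.86e-04), and the second call was lost with library size only (log2 fold change 0.16, adjusted p = 0.102).

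ACVR1, a type I receptor for BMPs, was at 40.7 ± 1.95, 22.3 ± 0.807 and 20.4 ± 0.946 CPM. It fell 1.83-fold in CD90+ against CD38+ control cells (adjusted p = 2.27e-10). Its difference with GATA2 overexpression was not called (adjusted p = 0.0606), though every library lay below every CD90+ control library. ACVR1 was called lower with library size only (2.05e-05), upper-quartile factors (0.00143), RLE factors (0.0117) and DESeq2 (0.0128). It was also called with a filter of at least 1 CPM in 3 libraries (0.00229) and without GATA2 overexpression replicate 3 (0.0362). BMPR1A, a type I BMP receptor, was at 20.5 ± 0.765, 23.8 ± 1.38 and 15.9 ± 0.275 CPM. It rose 1.16-fold and then fell 1.49-fold (adjusted p = 0.00532 and 3.58e-07). BMPR2, the type II BMP receptor, was at 24.8 ± 1.88, 21.8 ± 0.726 and 14.5 ± 1.99 CPM and fell with GATA2 overexpression (log2 fold change -0.59, adjusted p = 1.05e-05). Its difference between the control fractions was not called (log2 fold change -0.19, adjusted p = 0.0526). It was called without CD38+ control replicate 3 (adjusted p = 0.0305) and with limma voom (0.0282). Its log2 fold change turned to 0.22 with library size only and 0.077 with upper-quartile factors. BMPR1B, the other type I BMP receptor, had 0 counts in CD38+ control libraries, 117 in CD90+ control libraries and 21 with GATA2 overexpression. It was at least 28.7-fold higher in CD90+ than in CD38+ control cells, with the CD38+ libraries together set at 3 counts, and fell 3.99-fold with GATA2 overexpression (adjusted p = 8.75e-04).

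**Figure D4:**
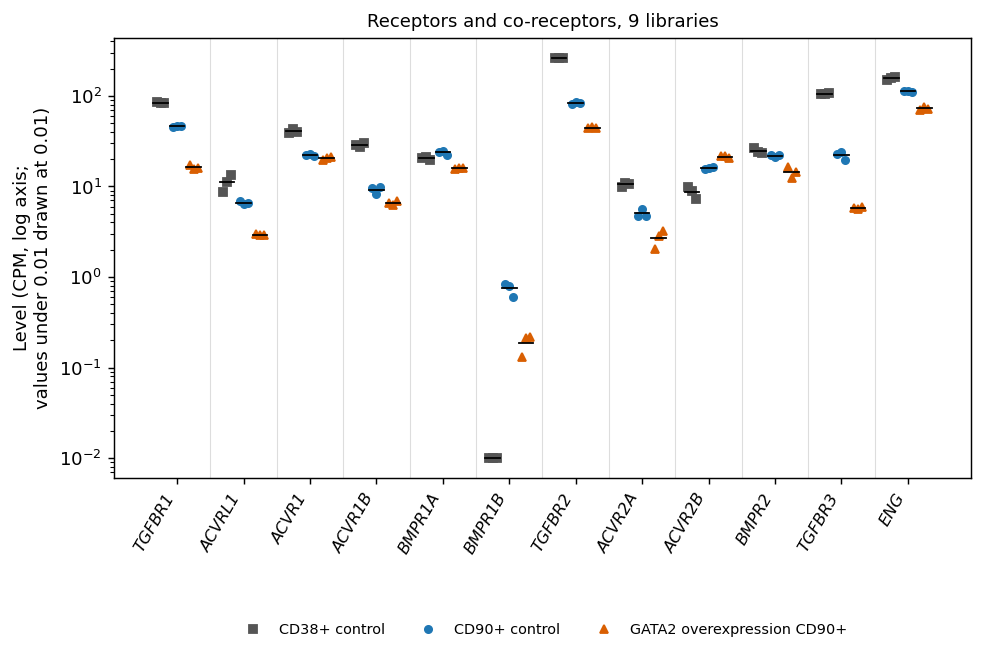
Level of each receptor and co-receptor in each of the 9 libraries (CPM, log axis; symbols as in the legend, black bars are means of 3; BMPR1B at 0 counts is drawn at the bottom). TGFBR1, TGFBR2 and TGFBR3 stepped down from CD38+ control (84.5, 264 and 106 CPM on average) to GATA2 overexpression libraries (16.2, 44.3 and 5.77 CPM), while ACVR2B stepped up from 8.71 to 21.4 CPM.

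The receptor-regulated SMADs did not follow the receptors. SMAD1 (ENSG00000170365.9, chromosome 4, 145481194 to 145558079, plus strand), of the BMP branch, was at 14.8, 13.4 and 15.9 CPM in the CD38+ control libraries and 20.5, 17.9 and 21.4 CPM in CD90+ control libraries. With GATA2 overexpression it was at 48.7, 46.1 and 46.2 CPM, well above both control groups. It rose 1.35-fold and 2.36-fold (adjusted p = 5.10e-05 and 5.02e-11), and was the single member that rose at least 2-fold with GATA2 overexpression. SMAD5, which shares its branch, was at 42.1 ± 0.916, 41.0 ± 1.32 and 52.3 ± 0.722 CPM. It rose 1.28-fold with GATA2 overexpression (adjusted p = 8.56e-07). It was not called in CD90+ against CD38+ control cells (log2 fold change -0.04, adjusted p = 0.407), where it turned to 0.37 with library size only, 0.22 with upper-quartile factors and 0.00904 with RLE factors. SMAD9, the least abundant of the BMP branch per kb of exon, was at 0.766 ± 0.193, 3.68 ± 0.389 and 2.97 ± 0.136 CPM and rose 4.80-fold in CD90+ over CD38+ control cells (adjusted p = 1.60e-08). With GATA2 overexpression it was not called (log2 fold change -0.31, adjusted p = 0.115), and was called lower with library size only, upper-quartile factors or the filter at 1 CPM (0.00803, 0.0361 and 0.0427).

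The SMADs of the TGF-beta and activin branch moved apart with GATA2 overexpression. SMAD3 (ENSG00000166949.15, chromosome 15, 67063763 to 67195195, plus strand) was at 12.2, 11.04 and 10.7 CPM in the CD38+ control libraries, 24.9, 26.3 and 25.04 CPM in the CD90+ control libraries and 7.85, 7.50 and 7.36 CPM with GATA2 overexpression. It rose 2.25-fold and then fell 3.36-fold (adjusted p = 2.35e-10 and 1.75e-12), ending below every CD38+ control library. SMAD2 was at 102, 107 and 101 CPM, then 92.5, 90.2 and 96.1 CPM, and 138, 142 and 134 CPM in the 3 groups and rose 1.48-fold with GATA2 overexpression (adjusted p = 9.78e-11). In CD90+ against CD38+ control cells it was called 1.11-fold lower (adjusted p = 6.23e-04). That call was lost with a filter of at least 1 CPM in 3 libraries (0.0628) and the direction turned with library size only (log2 fold change 0.26) and upper-quartile factors (0.11). SMAD4, the common partner of both branches, was at 34.8 ± 0.902, 61.9 ± 0.0767 and 65.2 ± 1.41 CPM. It rose 1.78-fold in CD90+ over CD38+ control cells (adjusted p = 2.51e-12), and its difference with GATA2 overexpression was not called (log2 fold change 0.07, adjusted p = 0.0828, turning to -0.17 with library size only and -0.041 with upper-quartile factors).

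The inhibitory SMADs differed in direction in CD90+ against CD38+ control cells, and both fell with GATA2 overexpression. SMAD7 (ENSG00000101665.9, chromosome 18, 48919853 to 48952052, minus strand), a feedback inhibitor induced by TGF-beta, was at 74.0, 73.3 and 75.5 CPM in the CD38+ control libraries, 16.2, 17.2 and 18.1 CPM in the CD90+ control libraries and 11.2, 12.5 and 12.0 CPM with GATA2 overexpression. It fell 4.33-fold and 1.44-fold (adjusted p = 6.56e-16 and 3.73e-07). SMAD6 (ENSG00000137834.14, chromosome 15, 66702228 to 66782848, plus strand), an inhibitor of the BMP branch and the member with the palindromic element in its promoter, was at 5.98, 5.45 and 5.63 CPM in the CD38+ control libraries. It was at 11.3, 12.3 and 12.5 CPM in the CD90+ control libraries and 9.48, 8.503 and 9.59 CPM with GATA2 overexpression. It rose 2.12-fold and then fell 1.31-fold (adjusted p = 4.05e-08 and 0.00201). All 3 intracellular regulators fell with GATA2 overexpression. SMURF1, a ubiquitin ligase acting on SMADs and receptors, was at 18.5 ± 1.31, 21.8 ± 1.22 and 11.6 ± 0.825 CPM and fell 1.89-fold (adjusted p = 1.33e-08). Its 1.18-fold rise in CD90+ over CD38+ control cells (adjusted p = 0.00989) was lost without CD38+ control replicate 2 (0.0560). SMURF2, its close relative, was at 17.2 ± 0.534, 27.6 ± 0.487 and 22.7 ± 0.789 CPM, a rise of 1.60-fold and a fall of 1.21-fold. SKIL, the SMAD corepressor SnoN, was at 101 ± 5.04, 59.4 ± 1.40 and 52.5 ± 3.69 CPM, with falls of 1.71-fold and 1.13-fold.

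ID1, ID3 and ID4 were higher in CD90+ than in CD38+ control cells, and ID2 was not. ID1 (ENSG00000125968.8, chromosome 20, 31605283 to 31606515, plus strand) was at 113, 109 and 109 CPM in the CD38+ control libraries, 375, 362 and 362 CPM in the CD90+ control libraries and 293, 330 and 318 CPM with GATA2 overexpression. CD38+ control libraries were lowest by far, and those with GATA2 overexpression stayed below every CD90+ control library. ID1 rose 3.32-fold and then fell 1.17-fold (adjusted p = 4.80e-17 and 1.27e-05). ID3 (ENSG00000117318.8, chromosome 1, 23557918 to 23559794, minus strand) was at 174, 180 and 178 CPM in the CD38+ control libraries, 485, 474 and 481 CPM in the CD90+ control libraries and 261, 277 and 280 CPM with GATA2 overexpression. It rose 2.71-fold and then fell 1.76-fold (adjusted p = 1.99e-17 and 3.55e-14). ID4 was at 12.0 ± 1.01, 28.0 ± 0.918 and 26.7 ± 1.17 CPM, a rise of 2.33-fold (adjusted p = 3.57e-11), and its difference with GATA2 overexpression was not called (adjusted p = 0.349). It was called lower with library size only (3.07e-04), upper-quartile factors (0.0177) and the filter at 1 CPM (0.0263).

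ID2 (ENSG00000115738.9, chromosome 2, 8678845 to 8684453, plus strand), which also acts in the development of innate lymphoid and dendritic cells, was at 873, 857 and 824 CPM in the CD38+ control libraries. It was at 725, 730 and 728 CPM in the CD90+ control libraries and 375, 385 and 377 CPM with GATA2 overexpression. It fell 1.92-fold with GATA2 overexpression (adjusted p = 1.63e-15). The 1.17-fold fall in CD90+ against CD38+ control cells (adjusted p = 2.08e-07) turned direction with library size only (log2 fold change 0.18) and upper-quartile factors (0.04). Per kb of exon, ID2 had the highest level of the 4 in CD38+ control cells (386 CPM per kb, against 98.6 for ID3, 89.5 for ID1 and 5.14 for ID4). In GATA2 overexpression cells ID1 was highest on that scale, at 254 CPM per kb against 172 for ID2, 151 for ID3 and 11.4 for ID4.

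**Figure D5:**
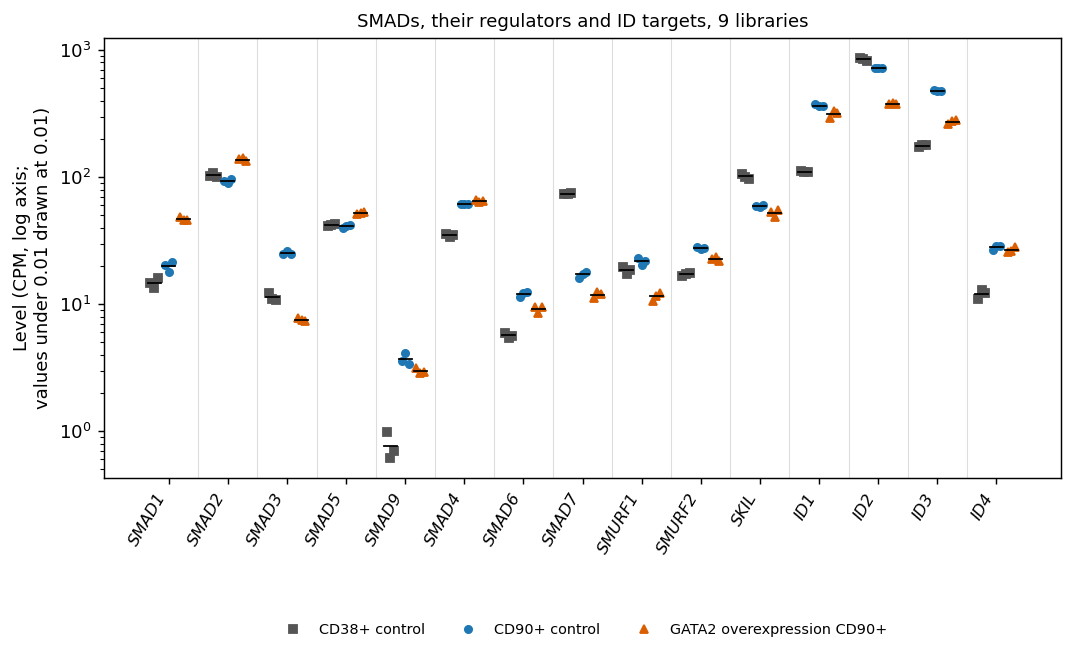
Level of each SMAD, intracellular regulator and ID gene in each of the 9 libraries (CPM, log axis; symbols as in the legend, black bars are means of 3). SMAD1 was highest with GATA2 overexpression (46.1 to 48.7 CPM), SMAD3 in CD90+ control (25.4 CPM) and SMAD7 in CD38+ control libraries (74.3 CPM); ID1 and ID3 were highest in CD90+ control libraries (367 and 480 CPM).

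Levels of different members were compared per kb of exon, with all annotated exons of a gene joined, which understates genes with long rare exons. Among receptors, TGFBR2 was highest in CD38+ control cells at 56.0 CPM per kb, ahead of ENG at 39.8 and of TGFBR1 and TGFBR3 at 12.4 and 12.2. In GATA2 overexpression cells ENG led at 18.5 CPM per kb and TGFBR2 followed at 9.41. Among ligands TGFB1 was highest in each group, at 37.3, 32.0 and 49.6 CPM per kb. The next ligand was INHBA at 2.43 CPM per kb in CD38+ control cells. In both CD90+ groups the next was BMP6, at 15.3 in control and 7.22 with GATA2 overexpression.

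GATA2 overexpression CD90+ cells were also set against CD38+ control cells, which differ in both the sorted antigen and the genotype. Here 18 members were called higher (47.4%, against 43.3% of all genes) and 18 lower (47.4%, against 39.9%), where 83.2% of all genes were called in either direction. Libraries lay wholly above for 17 members and wholly below for 18, against 42.9% and 40.0% of all genes. The receptors carried 10 of the 18 falls, with 2 rises, and TGFBR3 fell 18.4-fold, TGFBR2 5.95-fold and TGFBR1 5.21-fold (adjusted p = 1.16e-18, 5.37e-21 and 7.54e-18). INHBA fell 9.89-fold and SMAD7 6.25-fold, while BMP4 was 8.35-fold higher, LTBP1 higher by 2.59 on the log2 scale and SMAD1 3.20-fold higher. BMP2 (log2 fold change 0.27, adjusted p = 0.0846) and BMP7 (-0.11, adjusted p = 0.706) were not called. BMP7 turned to 0.052 with library size only, 0.039 with upper-quartile factors, 0.093 without CD38+ control replicate 1 and 0.022 without GATA2 overexpression replicate 3. BMP2 was called higher without CD38+ control replicate 1 (adjusted p = 0.0183), with library size only (0.00865) and with upper-quartile factors (0.0108). NOG was called lower (adjusted p = 0.0335), a call lost without CD38+ control replicate 1 or GATA2 overexpression replicate 1 or 3 (0.161, 0.0943 and 0.0699). The NOG call was also lost with library size only (0.171), upper-quartile factors (0.152) and no filter (0.0526). TGFB3 was called higher (adjusted p = 0.0448), a call lost without CD38+ control replicate 1 or 3 or GATA2 overexpression replicate 1 or 2 (0.0892, 0.165, 0.129 and 0.0761). The TGFB3 call was also lost with limma voom (0.063), and the libraries of the groups compared overlapped. The TGFB3 log2 fold change of 1.26 became 1.89 without CD38+ control replicate 2. That of TGFB2, 2.70, became 3.51 without CD38+ control replicate 3.

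A further list of 88 pathway genes outside the 39 members held 78 that were tested. In CD90+ against CD38+ control cells 43 of these rose (55.1%, against 41.1% of all genes) and 23 fell (29.5%, against 39.3%). With GATA2 overexpression 12 rose (15.4%, against 38.0% of all genes) and 48 fell (61.5%, against 39.6%) in comparison with control CD90+ cells. Their median log2 fold changes were 0.66 and -0.57. Of 16 further ligands 10 rose and 4 fell and then 4 rose and 6 fell (37.5%, near the background of 39.6%), and of 7 further receptors and co-receptors 5 rose and 2 fell and then 2 rose and 4 fell. Of 21 further extracellular regulators 13 rose and 5 fell and then 2 rose and 14 fell, and of 17 further intracellular regulators 6 rose (35.3%, near the background of 41.1%) and 9 fell and then 4 rose and 10 fell. Of 17 further targets 9 rose and 3 fell in the first comparison, and 14 fell and 0 rose with GATA2 overexpression.

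FST, which encodes follistatin, a secreted protein that binds activin, was called lower in both comparisons. It was at 875, 855 and 864 CPM in the CD38+ control libraries, 11.6, 12.0 and 13.1 CPM in the CD90+ control libraries and 4.57, 4.19 and 4.70 CPM with GATA2 overexpression. It fell 70.8-fold and 2.72-fold (adjusted p = 1.82e-23 and 1.15e-12). FURIN, a protease that cleaves TGF-beta and BMP precursors, and BMP1, a protease that cleaves procollagen and latency proteins, fell 2.72-fold and 4.18-fold in CD90+ against CD38+ control cells. DCN (decorin), a matrix proteoglycan that binds TGF-beta and also a mesenchymal marker here, was at 0.199 ± 0.0595, 86.1 ± 2.62 and 28.7 ± 2.02 CPM. CTGF (CCN2), a matricellular TGF-beta target, was at 0.936 to 1.58, 71.8 to 75.5 and 23.7 to 25.7 CPM. TGIF2, a corepressor of SMADs, rose in both comparisons, 4.16-fold and 1.58-fold, from 15.6 ± 0.633 CPM.

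With GATA2 overexpression BAMBI, a decoy receptor without a kinase, was at 215, 238 and 227 CPM, against 75.3, 75.3 and 78.0 CPM in the CD90+ control libraries and 172, 163 and 172 CPM in the CD38+ control libraries. It rose 2.98-fold over control CD90+ cells (adjusted p = 2.27e-16). AMHR2, the type II receptor of anti-Müllerian hormone, rose 4.10-fold from 4.61 ± 0.195 to 18.9 ± 1.23 CPM. The TGF-beta target TGFBI, a matrix protein, fell 6.23-fold from 117 ± 4.04 to 18.7 ± 0.542 CPM (adjusted p = 3.76e-18). JUNB, an AP-1 gene induced by the pathway, fell 1.98-fold from 877 ± 12.1 CPM. Macrophage and mesenchymal marker sums fell over the same comparison (2304 to 2340 to 526 to 583 CPM and 1151 to 1168 to 290 to 307 CPM). Epithelial and endoderm sums fell from 1084 to 1091 CPM to 709 to 715 CPM. Blood sums (2032 to 2054 to 1827 to 1854 CPM) and pluripotency sums (67.9 to 69.5 to 60.7 to 66.6 CPM) were lower too. Megakaryocyte and endothelial sums rose. The part of these cell types in the falls was not tested.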

How the data were processed

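Total RNA was made into strand-specific, paired-end libraries, per the labels' protocols. The authors deposited raw counts for 9 libraries, with genes named by symbol. The submitters' processing notes name HISAT2, featureCounts and hg38. The sources used here give no versions, annotation or strand setting. Reads of SMURF1 and TRRAP, TGFB1 and HNRNPUL1, ACVR2A and ORC4, and JUNB and HOOK2, whose exons overlap on opposite strands (11.7%, 6.64%, 6.35% and 14.2% of the exon length of the first), may therefore be mixed.

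Groups came from sample titles. Libraries of a group differed by more than sampling noise (chi-square per degree of freedom 3.96 to 7.84). The main test was edgeR 4.0.16 (R 4.3.3), quasi-likelihood, with TMM factors, filterByExpr (minimum count 10, minimum total 15), group means over all 9 libraries and Benjamini-Hochberg adjustment over 16232 genes. SEs are the log2 fold change over the square root of F. The floor for groups at 0 was 3 counts per group, 0.0261, 0.0193 and 0.0265 CPM in CD38+ control, CD90+ control and GATA2 overexpression cells, and covers counting error only. The procedure was tested on simulated data in which few genes were changed. The scaling was thus not tested where most genes differ, as in these data. Exon lengths and positions are from GENCODE release 29 (GRCh38).

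The members and lists were chosen with earlier results of these data known. Every member is accounted for, and those with a mean of at least 1 CPM are described more fully. Further pathway genes were named by the 3 lowest adjusted p in each direction of the first 2 comparisons, among those with a mean of at least 5 CPM. A gene that this rule names is not reported here. Of 222 listed symbols 4 had no row and 1 was found by synonym. Alternatives were RLE, upper-quartile and library size scaling, a filter at 1 CPM in 3 libraries, no filter, limma voom (limma 3.58.1), DESeq2 1.42.0, a fit of the 2 groups compared, a replicate block and leaving out each library.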

Additional observations from a re-analysis of the deposited data

How the results depend on the processing

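Over 15 alternatives per comparison, the counts of members called higher and lower stayed within 1.5 times their values: 18 to 25 and 10 to 16 in CD90+ against CD38+ control cells (20 and 15), 5 to 6 and 26 to 31 in GATA2 overexpression against control CD90+ cells (6 and 27), and 16 to 19 and 17 to 18 in GATA2 overexpression against CD38+ control cells (18 and 18). Of 568, 568 and 567 refitted member values, 544, 548 and 548 kept their direction and side of the threshold. With library size only the log2 fold changes in CD90+ against CD38+ control cells turned to 0.19 for TGFB1, 0.12 for LTBP2, 0.22 for BMPR2, 0.26 for SMAD2, 0.37 for SMAD5 and 0.18 for ID2. With upper-quartile factors TGFB1, BMPR2, SMAD2, SMAD5 and ID2 turned to 0.044, 0.077, 0.11, 0.22 and 0.037. SMAD5 also turned to 0.00904 with RLE factors, 0.0428 with the filter at 1 CPM, 0.00899 with DESeq2 and 0.0201 in the fit of the 2 groups compared. With GATA2 overexpression against control CD90+ cells NOG turned to -0.13 with library size only, and SMAD4 to -0.17 with library size only, -0.041 with upper-quartile factors and -0.023 with the filter at 1 CPM. Against CD38+ control cells BMP7 turned to 0.052 with library size only, 0.039 with upper-quartile factors, and lay between -0.32 and 0.093 with 1 library left out. In CD90+ against CD38+ control cells the median of all genes moved too, by 0.41 with library size only and 0.26 with upper-quartile factors. The cause of the turns under other settings was not tested. A replicate block gave 12889, 12384 and 13347 calls over all genes in the 3 comparisons, against 13056, 12602 and 13498 without it. With the block BMPR2 was called lower in CD90+ than in CD38+ control cells (-0.18, adjusted p = 0.0329), and NOG was not called in GATA2 overexpression against CD38+ control cells (adjusted p = 0.0523). Deviations of same-numbered libraries correlated at -0.029 to 0.0256 over 9 pairs, against -0.0318 to 0.0316 for libraries of different numbers. No effect shared by a replicate number was thus seen over all genes. These values cannot show whether same-numbered libraries were prepared together. INHBB, TGFB2, TGFB3, BMPR1B and LTBP2 had few counts, which limits how well their fold changes are known. The effect of sequencing depth on them was not tested.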
